A study of Mus musculus with 30 samples.

Results

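The 10 genes described here mark macrophages, the resident phagocytes of the prostate stroma. They were chosen by symbol and are Adgre1, Cd68, Csf1r, Mrc1, Cd163, Lyz2, C1qa, C1qb, C1qc and Itgam. All 10 were found among the 39179 gene identifiers counted in every mouse, of which 37607 matched a symbol. The ventral prostate (VP) of 30 mice was profiled by RNAseq, with 5 mice on each of 3 diets at 12 weeks and 5 at 32 weeks. The mice were male C57BL/6, and the fat of their otherwise alike, normolipidic AIN-93G diets came from linseed oil (LO), soybean oil (SO) or pork fat (PF) from weaning on. No group carried a transgene, and there was no group without one of the 3 fats. The study also reports glucose and insulin tolerance tests and a cold exposure shortly before the end of feeding. Whether the mice sequenced here went through them is not stated. The comparisons ask whether the kind of dietary fat and the time on it altered macrophage transcripts in the gland.

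Macrophages depend on the receptor CSF1R, which binds the growth factors CSF1 and IL-34, and their identity is set by transcription factors such as PU.1, encoded by Spi1. In the prostate they clear dying epithelial cells and apoptotic debris, take part in matrix turnover and respond to inflammation. The 10 genes cover several of their functions. Csf1r and Adgre1 (F4/80) encode surface receptors of the lineage. Itgam encodes CD11b, an integrin subunit that monocytes, neutrophils and some natural killer cells also carry. Mrc1 (CD206) and Cd163, the haemoglobin scavenger receptor, mark tissue-resident macrophages. Cd68 encodes a glycoprotein of lysosomes and endosomes, Lyz2 encodes lysozyme, and C1qa, C1qb and C1qc encode the chains of C1q, the recognition part of the classical complement pathway.

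Values below are in CPM, the read count of a gene relative to the TMM-scaled library total, and a fold change is given on the log2 scale. Each mouse had between 27590631 and 41301707 read pairs counted on genes. Each member was covered in every mouse, from at least 65 counts (Cd163) up to 12787 counts (Lyz2). In whole tissue, fewer macrophages and less of these RNAs per macrophage cannot be told apart. The VP was recognisable in all groups, since the summed level of 6 luminal epithelial markers lay between 2226 and 2900 CPM in every mouse. The 5 seminal vesicle genes checked had means under 10 counts, with Svs6 at 0 in all mice. The labels name no batch, so time on the diet and any difference in handling between the time points cannot be told apart. All mice were fed their diet from weaning on, so age and time on the diet cannot be told apart either. Where age is named below, it stands for the time point, which joins both. The labels give the mice as separate samples.

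Members lie on 8 chromosomes, and only the C1q genes are neighbours. On GRCm38, C1qb spans chromosome 4 from 136880129 to 136886187, C1qc from 136889804 to 136893065 and C1qa from 136895917 to 136898803, all on the minus strand. Adgre1 lies on chromosome 17 from 57358691 to 57483527, Lyz2 on chromosome 10 from 117277331 to 117282321 and Mrc1 on chromosome 2 from 14229392 to 14332057. Cd68 lies on chromosome 11 from 69664213 to 69666153, Cd163 on chromosome 6 from 124304656 to 124330527 and Itgam on chromosome 7 from 128062640 to 128118491. Csf1r, placed further down with its values, overlaps Hmgxb3 on the other strand, and as the strand setting of the counting is not given, reads of the shared stretch may be uncertain. Most of Itgam is also covered by an annotated readthrough gene, Gm49368, with which it shares 71% of its 100-base windows and whose identifier was not among those counted. Lyz2 shares 1.97% of its windows with its neighbour Lyz1, and the other 8 members share none with any other gene.

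The bases before the start sites of the members were read as a description, and their part in the levels was not tested. RefSeq promoters were matched for 7 of the 10 (C1qb, C1qc, Cd163, Cd68, Itgam, Lyz2 and Mrc1), and the 250 bases upstream of the start are printed for 4 that stand for different functions, complement, lysosome, integrin and scavenger receptor. They are on GRCm38.p6, 5′ to 3′ on the strand of the gene, at chr4:136886201-136886450 (minus), chr11:69666171-69666420 (minus), chr7:128062390-128062639 (plus) and chr6:124304401-124304650 (plus). Capitals mark GAGGAA on either strand, the core that PU.1 prefers.
C1qb: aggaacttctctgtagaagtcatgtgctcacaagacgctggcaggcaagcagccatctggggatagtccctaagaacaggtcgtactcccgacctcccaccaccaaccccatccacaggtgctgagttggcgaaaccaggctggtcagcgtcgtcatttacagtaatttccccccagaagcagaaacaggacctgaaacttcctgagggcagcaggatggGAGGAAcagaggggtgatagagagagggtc
Cd68: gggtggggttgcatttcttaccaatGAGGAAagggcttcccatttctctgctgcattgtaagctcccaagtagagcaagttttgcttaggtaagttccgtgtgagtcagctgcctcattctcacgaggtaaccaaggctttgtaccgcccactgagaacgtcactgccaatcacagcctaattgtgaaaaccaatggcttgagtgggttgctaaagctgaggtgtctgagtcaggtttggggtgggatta
Itgam: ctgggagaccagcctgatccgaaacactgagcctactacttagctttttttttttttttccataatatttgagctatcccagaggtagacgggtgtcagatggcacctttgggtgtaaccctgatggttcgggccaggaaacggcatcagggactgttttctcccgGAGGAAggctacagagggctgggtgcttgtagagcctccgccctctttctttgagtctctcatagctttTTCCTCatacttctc
Cd163: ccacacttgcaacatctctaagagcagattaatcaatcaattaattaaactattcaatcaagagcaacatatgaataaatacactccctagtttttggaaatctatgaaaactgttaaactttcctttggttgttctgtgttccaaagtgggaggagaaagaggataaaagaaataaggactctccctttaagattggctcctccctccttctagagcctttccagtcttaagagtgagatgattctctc
The letters GAGGAA or their complement TTCCTC stood in 5 of the 7 member promoters and in 23.3% of 32851 promoters of the same length. Mrc1 held 3 matches, Itgam 2, and C1qb, C1qc and Cd68 held 1 each, while Cd163 and Lyz2 held none. In C1qb the match began 30 bases before the start, and in Cd68 it began 225 bases before it. TATAAA was in 0 of 7 member promoters against 12.4% of all, TTGCGC in 0 of 7 against 5.34%, and TGACTCA in 1 of 7 against 4.46%, each searched on both strands. None of the 4 motifs overlaps another in its letters, and a match in such a window is a description of its letters, not a binding site.

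Expressed per kilobase of exon, Lyz2 was the most abundant member, with a mean of 98.01 CPM per kb (SD 61.5 over 30 mice). The C1q chains came next, with 33.4 CPM per kb for C1qb, 23.8 for C1qa and 12.6 for C1qc. Length here is that of all annotated exons merged, 1.931 kb for C1qc, whose longest transcript has 1203 bases. For C1qa it is 1.04 kb. Before division by length, C1qa and C1qc were nearly equal, at means of 24.75 and 24.29 CPM, so the gap between them rests on this choice. Other places in the order may also depend on it. Cd68 (7.14 CPM per kb), Mrc1 (6.29) and Csf1r (6.23) did not separate, since Cd68 exceeded Mrc1 in 17 of 30 mice and Mrc1 exceeded Csf1r in 15 of 30. Adgre1 followed with 4.23 CPM per kb. Itgam (2.21) and Cd163 (2.05) were the lowest per length and did not separate either, with Itgam above Cd163 in 18 of 30 mice.

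The order of the groups was alike for most members. Mean levels were highest in LO mice at 32 weeks for 10 of 10 members and lowest in SO mice at 12 weeks for 10 of 10, with LO mice at 12 weeks second lowest in 10 of 10. The highest group mean was 2.22 times (C1qa) to 3.47 times (Lyz2) the lowest. Neighbours in that order mostly did not differ beyond their spread, as the means were farther apart than the larger SD in only 4 of 50 neighbouring pairs of groups. These were PF above LO at 12 weeks for Adgre1 and Csf1r, and LO above SO at 12 weeks for Adgre1 and Mrc1.

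**Figure D1:**
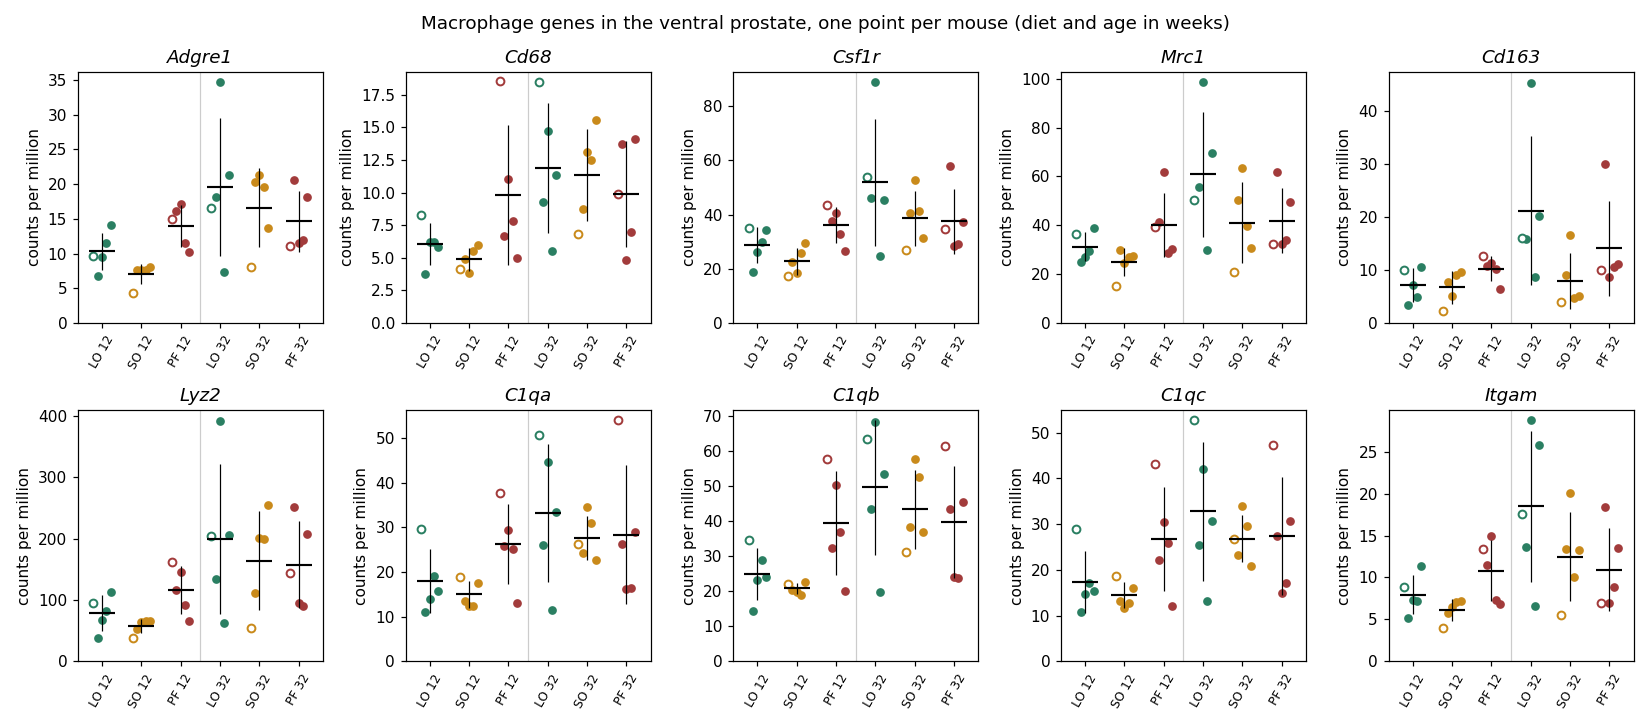
Level of each of the 10 macrophage genes in CPM (y axis, from 0) by diet and weeks on the diet (x axis), with 1 point per mouse, 5 mice a group. Horizontal bars are group means, vertical lines are SD, and open points are the mice numbered 1. At 12 weeks the SO group has the lowest mean in every panel, and at 32 weeks the LO mice spread widest, from 7.28 to 34.6 CPM for Adgre1.

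At 12 weeks, all 10 members had higher mean levels in PF than in SO mice, by 0.61 (Cd163) to 1.03 (Lyz2) on the log2 scale, with a median of 0.86. Over all 15873 genes tested the median was -0.01. None of the 10 passed edgeR's quasi-likelihood test at an adjusted p under 0.05, nor did any other gene (0% called). At an unadjusted p under 0.05, 9 of 10 members were higher, against 6.14% of all genes tested, and DESeq2 called 5 of 10, against 1.25% of the genes it tested.

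Adgre1 had the smallest p of the members. Its levels in the 5 PF mice at 12 weeks were 14.97, 16.2, 17.2, 11.5 and 10.2 CPM, and in the 5 SO mice 4.39, 7.63, 7.61, 7.57 and 8.08 CPM. Every PF mouse was above every SO mouse, and Adgre1 was the only member whose groups did not overlap, which was the case for 1.13% of all genes. The difference was 0.99 ± 0.21 (log2, SE, n = 5 mice per diet; 95% CI 0.55 to 1.44), with an adjusted p of 0.138 in edgeR and 0.00308 in DESeq2. The LO mice overlapped both groups and only their mean lay between, with single values of 9.62, 6.73, 9.57, 11.5 and 14.1 CPM.

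Lyz2 showed the largest difference of the 10. It stood at 162, 117, 146, 92.4 and 65.9 CPM in the PF mice and at 38.1, 53.4, 64.1, 65.3 and 66.4 CPM in the SO mice. The lowest PF mouse lay within the SO range, just under its top. The fold change was 1.03 ± 0.27 (log2, SE), with an adjusted p of 0.184 in edgeR and 0.0172 in DESeq2. Lyz1, which shares a short stretch with Lyz2 and is itself mainly known from Paneth cells, stood at 8.99 ± 2.29 CPM in PF and 7.99 ± 4.26 CPM in SO mice (SD, n = 5), a difference of 0.17 ± 0.39 (log2, SE).

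Among the C1q chains, C1qb had the smallest spread in the SO group. Its levels were 57.8, 32.3, 50.2, 36.9 and 20.03 CPM in PF and 22.1, 20.5, 19.7, 19.0 and 22.7 CPM in SO mice. In 4 of 5 PF mice it exceeded all SO mice, and the fifth lay inside their range. Its fold change was 0.93 ± 0.24 (adjusted p = 0.172 in edgeR, 0.0172 in DESeq2). C1qc (0.89 ± 0.29) and C1qa (0.82 ± 0.27) had similar differences with adjusted p of 0.273 and 0.292 in edgeR. DESeq2 called neither as fitted and both with the replicate number as a block, a fit in which Lyz2, Csf1r and Cd68 were not called.

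Csf1r, on chromosome 18 from 61100598 to 61132149 (GRCm38), encodes the receptor that keeps macrophages alive. It stood at 43.5, 37.6, 40.6, 32.96 and 26.6 CPM in PF and at 17.3, 22.4, 18.3, 25.9 and 29.5 CPM in SO mice. A single PF mouse lay within the SO range. The difference was 0.68 ± 0.18, with an adjusted p of 0.185 in edgeR and 0.0313 in DESeq2. Cd68 stood at 18.5, 6.66, 11.1, 7.79 and 5.0 CPM in PF against 4.16, 4.92, 3.85, 5.51 and 5.96 CPM in SO mice. Its fold change of 1.01 ± 0.29 (adjusted p = 0.236 in edgeR, 0.048 in DESeq2) leaned on the PF mouse numbered 1, without which it was 0.65.

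The remaining members were called by neither tool. Itgam differed by 0.83 ± 0.25 and Mrc1 by 0.70 ± 0.21, with adjusted p of 0.239 and 0.256 in edgeR. Cd163 had the smallest difference, 0.61 ± 0.36 (95% CI -0.15 to 1.37), and was the member that did not reach an unadjusted p under 0.05. Its levels were 12.7, 10.7, 11.3, 10.2 and 6.45 CPM in PF and 2.18, 7.72, 5.07, 9.01 and 9.54 CPM in SO mice. The PF mouse numbered 5 was the lowest PF mouse for 9 of 10 members, and without it edgeR called 2 of 10 (Adgre1 and C1qb), when 0.812% of all genes were called higher.

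The other pairs of diets gave smaller differences at 12 weeks. PF against LO was positive for 10 of 10 members, from 0.33 (Csf1r) to 0.69 (Cd68) with a median of 0.54. At an unadjusted p under 0.05, 4 of 10 were higher (Adgre1, Cd68, C1qb and C1qc) against 4.31% of all genes. No member was called by edgeR or DESeq2, which called 0% and 0.102% of all genes higher. LO against SO was positive for 10 of 10 with a median of 0.32, with Cd163 negative under some alternatives. Adgre1, at 0.54 ± 0.21 (unadjusted p = 0.0193, adjusted p = 0.999), was the member with the largest difference in that pair. The 3 pairs share their groups, so their values are not independent of each other.

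At 32 weeks the diets did not separate in this way. PF against SO had 4 members positive and 6 negative, with a median of -0.03 and values between -0.17 (Itgam) and 0.85 (Cd163). PF against LO was negative for 10 of 10, with a median of -0.37, and C1qa, C1qc and Lyz2 turned positive under some alternatives. No member was called by edgeR in these pairs, as for all genes tested (0% called). DESeq2 called none of the 10 either, where it called 0.448% of all genes higher for PF against SO and 0.301% for PF against LO. For Adgre1 the 95% CI of PF against SO was -0.90 to 0.57, so a difference of the size seen at 12 weeks in the same direction lay outside it. That was so for 7 of 10 members, while the intervals of Mrc1, Cd163 and C1qa included their 12-week values. The 12-week values carry an error of their own, and for Adgre1 the intervals overlap (0.55 to 1.44 at 12 weeks). The test of the change itself, given further down, called 0 of 10, so a loss of the difference was not shown. Levels of Adgre1 at 32 weeks were 11.1, 20.6, 11.5, 12.0 and 18.1 CPM in PF and 8.05, 20.3, 21.4, 19.6 and 13.7 CPM in SO mice.

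Cd163 had the largest difference between diets at 32 weeks. It stood at 16.0, 15.9, 45.2, 8.69 and 20.1 CPM in LO mice and at 3.96, 9.10, 16.5, 4.80 and 5.001 CPM in SO mice. The groups overlapped, but 3 SO mice lay below every LO mouse. The LO against SO difference was 1.43 ± 0.50 (95% CI 0.38 to 2.49, unadjusted p = 0.0113), with an adjusted p of about 1 in edgeR and of 0.626 in DESeq2. For the other 9 members the same difference was between 0.08 (Cd68) and 0.58 (Itgam), and Adgre1, Cd68 and Lyz2 were negative under some alternatives. Set against Csf1r within each mouse, the count ratio of Cd163 had a median of 0.16 in SO mice at 32 weeks and of 0.27 to 0.35 in the other 5 groups.

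**Figure D2:**
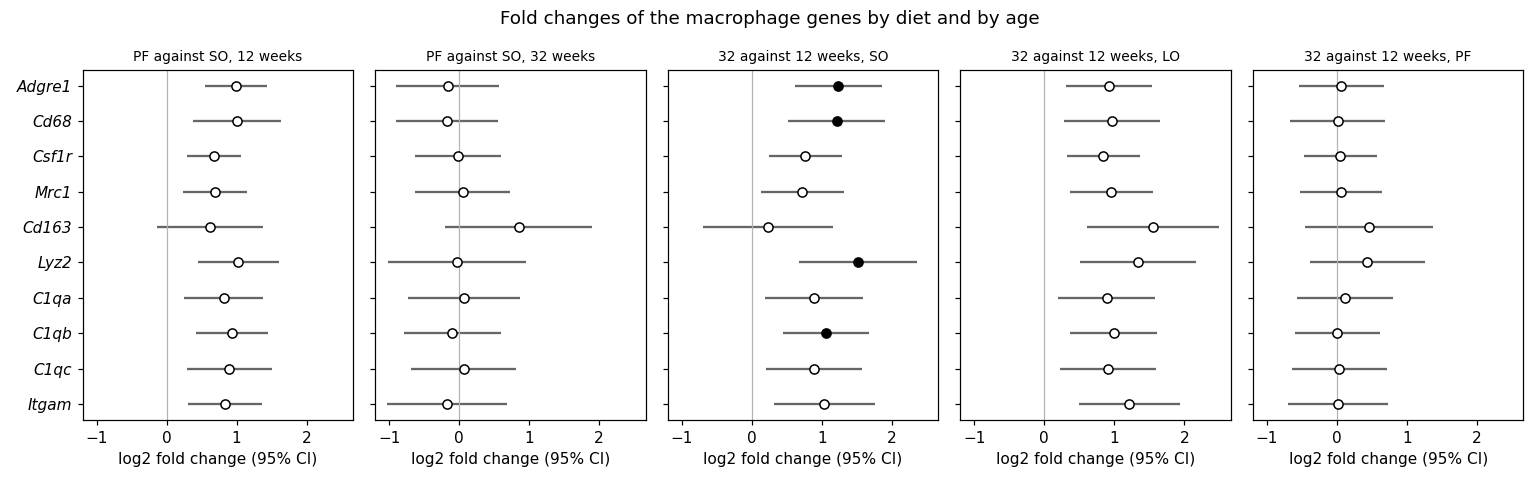
Fold changes (x axis, log2) of the 10 macrophage genes (y axis) in 5 comparisons, as points with 95% confidence intervals. Filled points have an adjusted p under 0.05 in edgeR, which holds for Adgre1, Cd68, Lyz2 and C1qb between the time points in SO mice. The intervals for PF against SO lie to the right at 12 weeks and span 0 at 32 weeks.

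Between 12 and 32 weeks 4 of the macrophage genes rose in SO mice, and none changed detectably in PF mice. In SO mice all 10 members were positive, with a median of 0.96, and 4 passed edgeR's test (Adgre1, Cd68, Lyz2 and C1qb) against 5.25% of all genes called higher. DESeq2 called 6 of 10, adding Csf1r and Itgam, against 6.76% of genes. Lyz2 rose by 1.51 ± 0.41 (adjusted p = 0.0262), Adgre1 by 1.24 ± 0.30 (adjusted p = 0.0154), Cd68 by 1.22 ± 0.34 (adjusted p = 0.0293) and C1qb by 1.06 ± 0.30 (adjusted p = 0.0337). These calls depended on single mice, since leaving out each SO mouse in turn left between 0 and 7 of the 10 called. The 0 came without the SO mouse numbered 1 at 12 weeks and without number 4 at 32 weeks, when 3.15% and 1.09% of all genes were called higher. The 7 came without number 1 at 32 weeks, with 6.76% of genes, and Adgre1 was called in 8 of these 10 refits.

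In single mice, Lyz2 at 32 weeks stood at 54.1, 111, 201, 200 and 254 CPM in the SO group. The mouse numbered 1 lay inside the 12-week range and the other 4 above it. Cd68 stood at 6.85, 8.75, 13.1, 12.5 and 15.6 CPM and C1qb at 31.1, 38.4, 57.6, 52.6 and 36.9 CPM. For Cd68, C1qa, C1qb and C1qc every SO mouse at 32 weeks exceeded every SO mouse at 12 weeks, which was the case for 5.13% of all genes. Cd163 had the smallest difference with age in SO mice, at 0.23 ± 0.45 (95% CI -0.70 to 1.16, adjusted p = 0.816).

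In LO mice the differences between the time points had the same median as in SO mice, though Cd163 stood higher. None of the members passed edgeR's test. All 10 members were positive, from 0.84 (Csf1r) to 1.55 (Cd163), with a median of 0.96 and adjusted p between 0.0553 and 0.129, where 1.74% of all genes were called higher. DESeq2 called 8 of 10, all but C1qa and C1qc, against 4.29% of genes. Cd163 differed by 1.55 ± 0.46 between the ages in LO mice (adjusted p = 0.0591 in edgeR, 0.0129 in DESeq2). The LO mouse numbered 4 at 32 weeks was the lowest of its group for 10 of 10 members, with a summed member level of 189 CPM against 388 to 858 CPM in the other 4. Without it edgeR called 10 of 10, when 4.58% of all genes were called higher. The LO mouse numbered 3 had the highest level of all 30 mice for 7 of 10 members, Lyz2 at 392 CPM among them.

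In PF mice the members were between 0.01 (C1qb) and 0.46 (Cd163) with a median of 0.05. Of the members, 0 of 10 were called by edgeR or DESeq2, which called 0.0181% and 0.169% of all genes higher. None of the 10 was at an unadjusted p under 0.05 in PF mice. The 95% CI for Adgre1 was -0.54 to 0.67 and that for Csf1r -0.47 to 0.57, but those for Lyz2 (-0.39 to 1.26) and Cd163 (-0.46 to 1.38) were wider. The test of the difference itself, the change of PF against SO from 12 to 32 weeks, was negative for 9 of 10 members with a median of -0.94. At an unadjusted p under 0.05, 4 of 10 (Adgre1, Cd68, C1qb and Itgam) were lower, against 6.65% of all genes. No member was called by edgeR (0% of genes) or by DESeq2, which called 42 of 16258 genes lower. For Adgre1 it was -1.17 ± 0.42 (adjusted p = 0.328). The change of PF against LO was negative for 10 of 10, with a median of -0.90 and no call, and that of LO against SO had 6 positive and 4 negative, with a median of 0.01 and no call.

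Within groups the members varied together from mouse to mouse. After each group's mean was taken off, the 45 pairs of members had a Pearson's r between 0.39 (Mrc1 and C1qc) and 0.98 (C1qa and C1qc), with a median of 0.74 over the 30 mice. C1qa, C1qb and C1qc were the most alike, and Adgre1 and Mrc1 stood at 0.93. The members share a library and its scaling, and the genes of C1q are neighbours, so these values are a description. Without the 2 mice farthest from the median of the members (LO numbers 3 and 4 at 32 weeks) the median was 0.68 and the lowest 0.19.

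**Figure D3:**
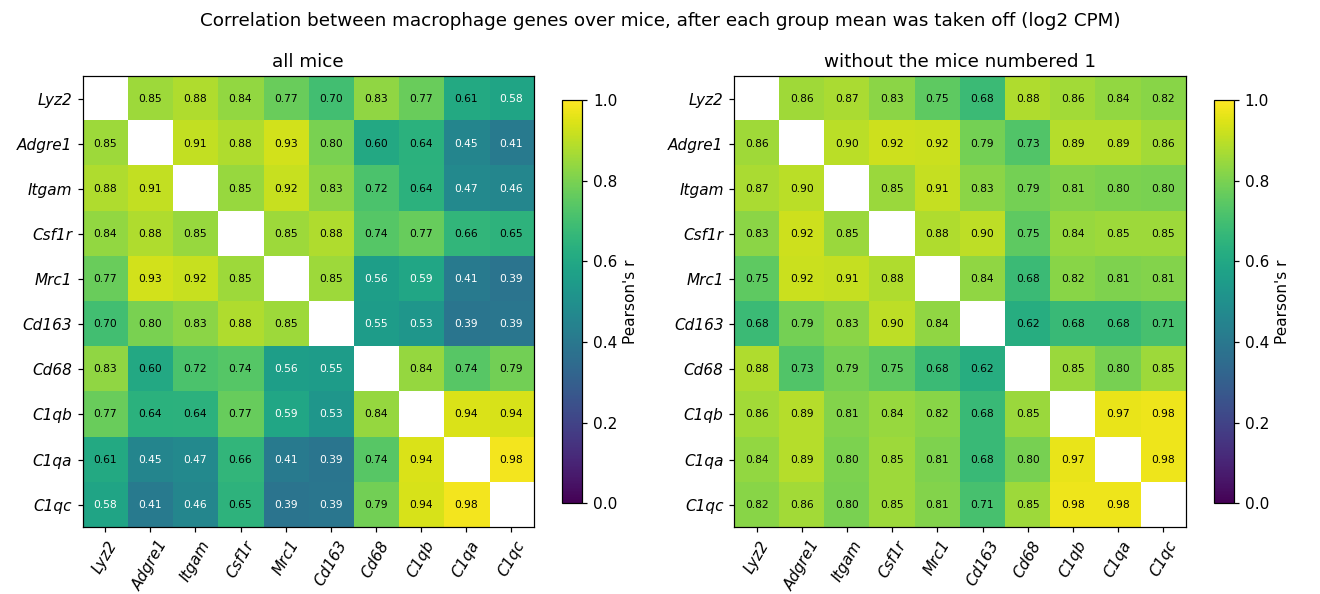
Pearson's r between members over mice (colour and number in each cell), after group means of log2 CPM were taken off, for all 30 mice (left) and without the 6 mice numbered 1 (right). The C1q block at the lower right stays above 0.9 in both, and its values with Adgre1, Mrc1 and Cd163 are lower on the left than on the right.

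The low values came with the mice numbered 1 in their groups. The count ratio of C1qc to Csf1r was 0.824 to 1.37 in these 6 mice and 0.445 to 0.818 in the other 24. That of C1qb to C1qc was 1.16 to 1.34 in the mice numbered 1 and 1.34 to 1.79 in the others. So the chains of C1q and the receptor genes did not keep a fixed ratio in all mice. Leaving out the mice numbered 1 raised the lowest pair to 0.62 and the median to 0.84. With mice 2 to 5 only, PF against SO at 12 weeks had a median of 0.69 with 10 of 10 positive and none called, and age in SO mice a median of 1.06 with 6 of 10 called, against 5.77% of all genes. What sets the mice numbered 1 apart is not given in the sources used here.

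**Figure D4:**
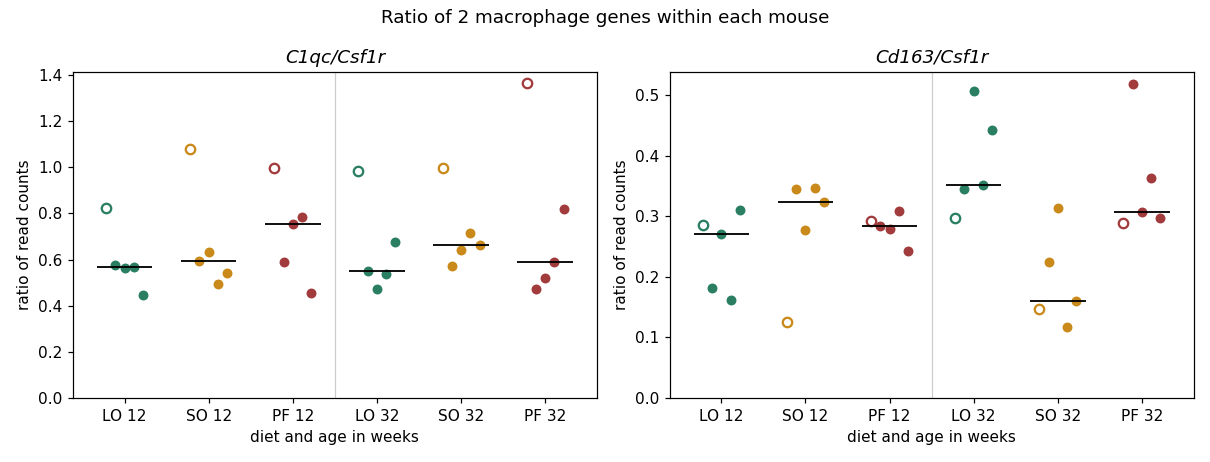
Ratio of read counts within each mouse (y axis, from 0) of C1qc to Csf1r (left) and Cd163 to Csf1r (right), by diet and weeks on the diet, with open points for the mice numbered 1 and bars for the medians. On the left the open points are the highest of each group, and on the right the SO group at 32 weeks has the lowest median, 0.16.

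The genes whose pattern was most like that of the members were taken from 16595 other genes by the correlation with the members' mean over the 30 mice, after group means were taken off. They were Nfam1 (r = 0.95), Fcgr3 (0.94), Fcrls (0.93), Vsir (0.93), C5ar1 (0.93), Pirb (0.92), Ms4a6d (0.92), Rnase4 (0.92), Slco2b1 (0.92) and Tbxas1 (0.91). Fcgr3 encodes an Fc receptor for IgG, and C5ar1 the receptor of the complement fragment C5a. Most were low, between 2.07 (Ms4a6d) and 16.4 CPM (Vsir), with Rnase4 at 42.4 CPM.

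Upstream of the members stand the ligands of CSF1R and the myeloid transcription factors. At 12 weeks PF against SO was positive for 6 of these 7 genes, at a median of 0.24 on the log2 scale, and none was called. Csf1 stood at 20.1 ± 3.73 CPM in PF and at 15.6 ± 1.47 CPM in SO mice (SD, n = 5), a difference of 0.37 ± 0.13 (adjusted p = 0.332). Spi1 stood at 3.41 ± 1.90 CPM in PF and 1.63 ± 0.40 CPM in SO mice and differed by 1.07 ± 0.39 (adjusted p = 0.376). Il34, the other ligand, differed by 0.14 ± 0.20, Irf8 by 0.24 ± 0.13, Maf by 0.24 ± 0.15 and Cebpb by -0.02 ± 0.45. With age, Maf rose by 0.65 ± 0.15 in LO mice (adjusted p = 0.018) and by 0.51 ± 0.15 in SO mice (adjusted p = 0.0352), calls that were lost in 3 and 8 of the 10 refits without a single mouse. MAF is a transcription factor of mature macrophages.

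A list of 20 further macrophage genes was read beside the members. For this and the lists below, edgeR called 5.25% of all genes higher with age in SO mice, 1.74% in LO mice and 0.0181% in PF mice. For PF against SO at 12 weeks edgeR called 0% of all genes higher and DESeq2 1.25%. PF against SO at 12 weeks was positive for 19 of 20, the median being 0.84, with 0 called by edgeR and 10 by DESeq2. Cd300a, an inhibitory receptor, differed by 1.07 ± 0.20, and Ctss, a lysosomal protease, by 1.25 ± 0.27, both at an adjusted p of 0.138 in edgeR. Between the ages in SO mice, 17 of these 20 rose, Aif1 by 1.78 ± 0.30 (adjusted p = 0.00266) and Cx3cr1, the fractalkine receptor, by 1.26 ± 0.22 (adjusted p = 0.00266). In LO mice 7 of 20 rose, such as Fcer1g by 1.05 ± 0.25 (adjusted p = 0.0234), and in PF mice none of 20 was called.

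Genes of resident macrophages were a list of their own. In LO mice 13 of 14 were higher at 32 weeks, with a median of 0.99, and 2 were called, Lyve1 at 1.197 ± 0.33 (adjusted p = 0.0461) and Cd209f at 1.59 ± 0.43 (adjusted p = 0.043). Without the LO mouse numbered 3 at 32 weeks Cd209f was at 0.76 (adjusted p = 0.295), and the call of Lyve1 was lost in 8 of 10 such refits. In SO mice the median was 0.48 and 0 of 14 were called by edgeR, Lyve1 being at 0.49 ± 0.33. Cd163 and Mrc1, the members found on resident cells, likewise stood at 0.23 and 0.72 in SO against 1.55 and 0.96 in LO mice. The change of LO against SO for Cd163 was 1.32 ± 0.64 (unadjusted p = 0.0488, adjusted p about 1), so a difference between the diets was not shown.

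Of the activation lists, the classical genes had a median of 1.04 for PF against SO at 12 weeks, with 8 of 8 tested positive, and the alternative genes had 0.96 with 7 of 7 positive, none called by edgeR. Mgl2, a lectin of alternatively activated macrophages and dendritic cells, differed by 1.297 ± 0.32, and Cd40, a co-stimulatory receptor, by 1.47 ± 0.33. With age in SO mice 3 of 9 classical genes rose, Cd40 by 1.95 ± 0.41 (adjusted p = 0.00734, and 0.0503 without the SO mouse numbered 4 at 32 weeks), and 0 of 8 alternative ones. Nos2, Il6, Il12b and Il10 were at a mean under 10 counts. Of 14 lipid-associated macrophage genes tested, 13 were positive for PF against SO at 12 weeks, and 3 rose with age in SO mice, namely Lgals3 by 2.05 ± 0.56 (adjusted p = 0.0282), Msr1 by 1.98 ± 0.55 (adjusted p = 0.0282) and Gpnmb by 1.97 ± 0.59 (adjusted p = 0.0435). All 3 calls were lost without the SO mouse numbered 5 at 32 weeks, which had 118 CPM of Gpnmb against a group median of 19.9 CPM, and Gpnmb then stood at 0.99 (adjusted p = 0.31). Of 8 monocyte genes tested, 1 was called in SO mice with age, Ly6c2, which stood at 0.62 ± 0.14 CPM at 12 and 5.72 ± 4.46 CPM at 32 weeks and was not called in 8 of 10 refits without a single mouse.

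Markers of lymphocytes and dendritic cells moved with the members. At 12 weeks PF against SO was positive for 9 of 9 T and NK cell markers, at a median of 1.19, and for 7 of 7 B and plasma cell markers, at a median of 2.31, none called by edgeR and 1 of each by DESeq2. Their summed levels were 5.20 to 15.8 CPM in PF against 3.55 to 5.30 CPM in SO mice for T and NK cells, and 13.7 to 464 CPM against 20.6 to 40.3 CPM for B and plasma cells. Dendritic cell markers summed to 19.0 to 29.5 CPM against 14.2 to 18.5 CPM, with 8 of 9 higher. With age in SO mice 9 of 9, 7 of 7 and 5 of 9 of these markers rose. The 5 mast cell markers tested had a median of 0.33 for PF against SO at 12 weeks, of 0.07 for age in SO mice and of 0.94 for age in both LO and PF mice, with none called by edgeR. Neutrophil markers were low, with a summed level of 1.27 to 9.30 CPM over all mice and 6 of 8 (S100a8, S100a9, Cxcr2, Ly6g, Mmp8 and Ngp) at a mean under 10 counts. Their part in the values of Itgam, Lyz2 and the other members was not tested.

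Lists of non-immune cells were compared in the same way. Luminal epithelial markers had a median of -0.03 for PF against SO at 12 weeks and of 0.02 for age in SO mice, smooth muscle markers -0.13 and -0.13, and endothelial markers 0.32 and 0.46. Adipocyte markers were negative in both (-0.32 and -0.86), none called. Basal epithelial markers had medians of 0.24 and 0.53, with 2 of 4 called for age in SO mice, and 3 of 4 rose with age in LO mice, Krt5 by 0.90 ± 0.20 (adjusted p = 0.0174). Fibroblast markers had medians of 0.39 and 0.09, with no call by edgeR. Ventral prostate secretory genes had medians of -0.02 and -0.19, and globin genes 0.05 and -0.28. The summed level of the 6 secretory genes found moved more than their median. In SO mice its mean was 279200 CPM at 12 weeks and 158100 CPM at 32 weeks. In LO mice the means were 246600 and 149600 CPM, and in PF mice 261000 and 243900 CPM. These sums were not tested. Of the endothelial markers Emcn rose by 0.84 ± 0.20 with age in SO mice (adjusted p = 0.0114), and of the secretory genes Sbp was lower, at -0.96 ± 0.22 in SO (adjusted p = 0.01) and -0.81 ± 0.22 in LO mice (adjusted p = 0.041). In PF mice the globin genes, signs of blood in the tissue, had a median of 2.04 with age, with 0 of 5 called by edgeR and 3 by DESeq2, and summed levels of 42.4 to 500 CPM at 32 weeks against 31.9 to 73.9 CPM at 12 weeks. For PF against SO at 32 weeks their median was 2.48, again with 0 called by edgeR and 3 by DESeq2. DESeq2 called 0.169% of all genes higher with age in PF mice and 0.448% for PF against SO at 32 weeks.

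**Figure D5:**
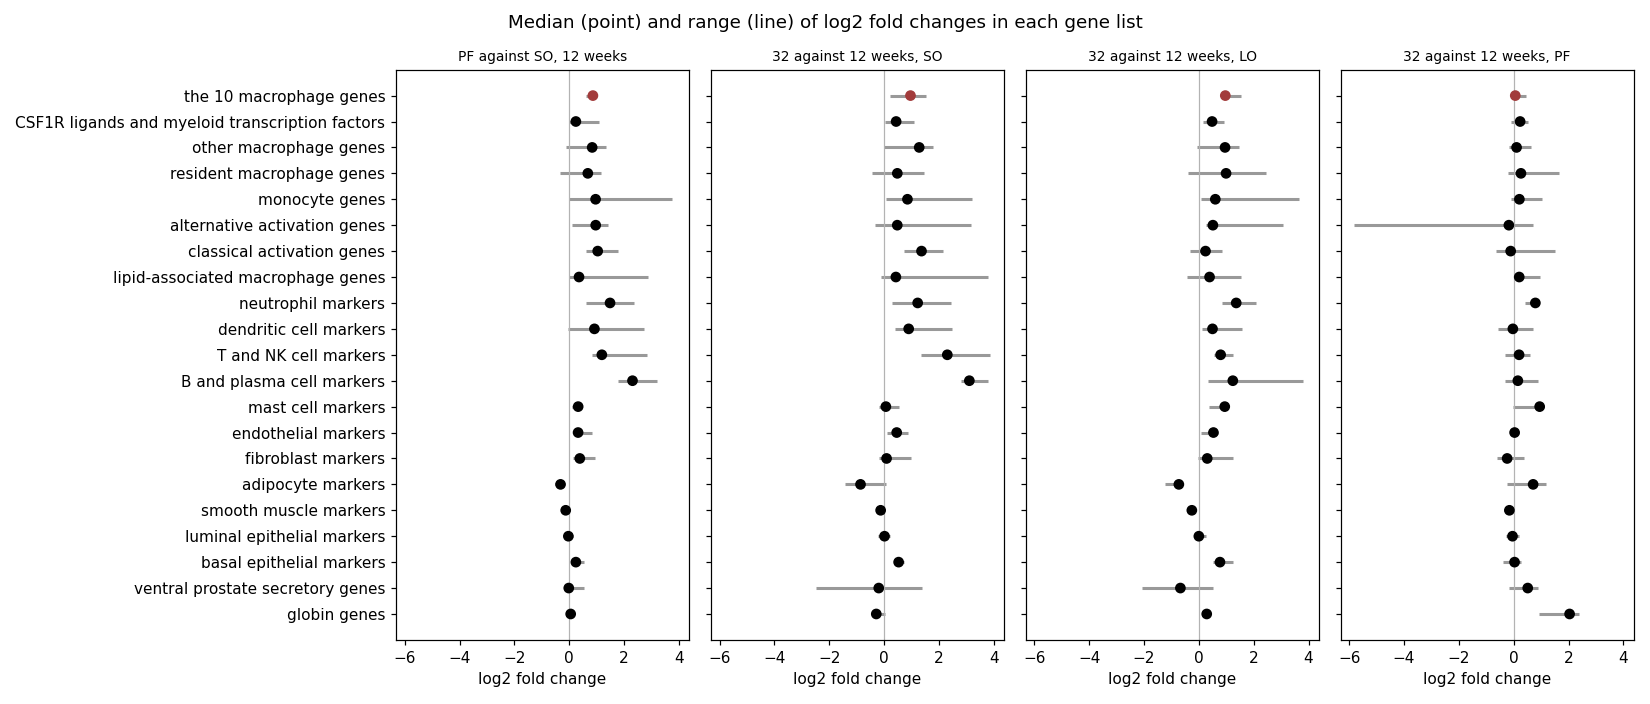
Median (point) and range (line) of log2 fold changes (x axis) of the tested genes of each list (y axis) in 4 comparisons, with the 10 macrophage genes in red at the top. Lymphocyte and dendritic cell lists lie to the right for PF against SO at 12 weeks and for age in SO mice, the mast cell list lies near 0 for age in SO mice, and luminal epithelial and smooth muscle lists lie near 0 in both.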

How the data were processed

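RNA from the VP of 30 mice was sequenced. The authors aligned the reads and deposited 1 table of raw read-pair counts per gene and mouse. The submitters' processing notes list TopHat2, TopHat, HTSeq, DESeq2 and the build GRCm38.p6, and the strand setting and annotation release are not given in the sources used here. Libraries followed a stranded mRNA protocol. Rows that name no gene held 23.7 to 32.2% of read pairs per mouse and were left out.

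Low genes were removed by edgeR's expression filter and libraries scaled by TMM. The test was edgeR's quasi-likelihood F test (edgeR 4.0.16, R 4.3.3; two-sided) with Benjamini-Hochberg adjustment over all genes and a threshold of 0.05. The 3 diets of a time point shared a fit, and the age comparisons and changes used all 30 mice. DESeq2 1.42.0 (Wald test), DESeq2's size factors, no filter, the replicate number as a block, all groups in 1 fit, mice 2 to 5 only, mice 1 to 4 at 32 weeks and leaving out each mouse were alternatives. Both tools were tested on simulated data for PF against SO at 12 weeks (16166 genes). Of the genes given a log2 change of 1, 74% were recovered with edgeR and 81.8% with DESeq2. Of the 15969 genes left unchanged, edgeR falsely called 11 and DESeq2 falsely called 38. For 32 against 12 weeks in SO mice, simulated likewise, 67% of genes with a log2 change of 1 were recovered with edgeR and 75% with DESeq2. There edgeR falsely called 7 and DESeq2 18 of 16287 unchanged genes. Genes were drawn independently, so differences shared by many genes of a mouse were not part of the simulation.

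The members and lists were chosen with earlier results of these data known. Named genes were all members, the 7 ligands and factors, the genes of each other list with the smallest p (up to 3 by PF against SO at 12 weeks and up to 2 by age, of which some are printed), and the 10 genes most correlated with the members (log2 of CPM + 0.1, centred on group means). The result of 1 listed gene is not reported here. The p-values set a difference between groups against the spread between the sampled mice. Promoters are from RefSeq (GRCm38.p6) and positions from GENCODE M21 (GRCm38).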

Additional observations from a re-analysis of the deposited data

Results flagged for a closer look

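In 60 sets of 5 mice (10 members in 6 groups), 2 held a mouse far from the other 4, where chance gives about 1 in 20. Adgre1 was at 4.39 CPM in the SO mouse numbered 1 at 12 weeks, against 7.57 to 8.08 CPM in the other 4. Cd163 was at 30.02 CPM in the PF mouse numbered 2 at 32 weeks, against 8.72 to 11.1 CPM in the others.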

How the results depend on the processing

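With DESeq2, 5 of 10 members were called higher in PF than in SO mice at 12 weeks, 8 with age in LO mice, and 6 with age in SO mice, against 0, 0 and 4 in edgeR. In the same order, DESeq2 called 1.25%, 4.29% and 6.76% of all genes higher. With mice 1 to 4 at 32 weeks only, 1 of 10 was called with age in SO mice, against 4.08% of all genes called higher. Leaving out each mouse gave 0 to 2 members called for PF against SO at 12 weeks, 0 to 10 with age in LO mice and 0 to 7 with age in SO mice. All other comparisons stayed at 0 without any single mouse. With the replicate block, edgeR called 5 of 10 with age in SO mice, against 5.35% of all genes called higher, and none elsewhere. With the replicate block in DESeq2, an alternative chosen after seeing the data, 4 (Adgre1, C1qa, C1qb and C1qc) were called for PF against SO at 12 weeks, 10 with age in LO mice, 8 with age in SO mice and 1 (Cd163) for LO against SO at 32 weeks, where this fit called 0.867%, 5.16%, 7.59% and 0.0432% of all genes higher. The numbers did not pair the mice: same-numbered mice had a mean correlation of 0.06 at 12 weeks and 0.13 at 32 weeks, with a lowest of -0.18 and -0.41, and mice numbered 1 had 0.42 and 0.43. The cause of these differences was not tested. The direction of all 10 members held under each alternative for PF against SO and PF against LO at 12 weeks and for age in LO mice, and that of 9, all but Cd163, for age in SO mice. For PF against SO at 32 weeks 8 members and for age in PF mice 9 members changed sign under some alternative, as did C1qa, C1qc and Lyz2 for PF against LO at 32 weeks, Adgre1, Cd68 and Lyz2 for LO against SO at 32 weeks and Cd163 for LO against SO at 12 weeks, none with a call. Of the listed genes named as called, Fcer1g lost its call in LO mice in 4 of 10 refits without a single mouse, Sbp in LO mice in 6, Krt5 in LO mice in 1 and Emcn in SO mice in 1.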

Other observations

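Lyz1, the neighbour of Lyz2, differed between diets at 32 weeks. It stood at 7.83 to 27.6 CPM in the 5 LO mice and at 2.63 to 6.87 CPM in the 5 SO mice, so the groups did not overlap. The difference was 1.96 ± 0.35 (log2, SE), with an adjusted p of 0.438 in edgeR and of 0.000148 in DESeq2. Lyz2 differed by 0.30 ± 0.46 in the same mice.

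Chil3, a chitinase-like gene of alternatively activated macrophages, stood at 11.7 ± 25.7 CPM in PF mice at 12 weeks (SD, n = 5), a mean that came from a single mouse at 57.7 CPM.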
